A study of Homo sapiens with 3 samples.

Results

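The transcripts described here were picked out by their RefSeq identifiers and are 10 of the 25443 transcripts that had a value in at least 1 library. They encode the HMG-box proteins HMGB1 (NM_002128), HMGB2 (NM_002129) and HMGB3 (NM_005342), the nucleosome-binding proteins HMGN1 (NM_004965) and HMGN2 (NM_005517), NUCKS1 (NM_022731), SET (NM_003011), nucleophosmin NPM1 (NM_002520), nucleolin NCL (NM_005381) and the cold shock domain protein YBX1 (NM_004559). They were chosen with the RPKM values of the same 3 libraries known, so their levels and ratios are given as a description and no test was applied to them. All 10 had a value in every library, and all 10 passed the limit used below, a mean of at least 10 RPKM, which 8060 transcripts passed in all.

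The cells are named HEK 293 in the labels and HEK293T in the study's methods, a human embryonic kidney line that in its T form carries the SV40 large T antigen. The BDE-209 library came from cells kept for 48 h with 1 µM BDE-209 (decabromodiphenyl ether, a fully brominated flame retardant) in medium that also held 1 mM of the solvent DMSO. The DMSO library came from cells in 1 mM DMSO, and the cells of all libraries were cultured for 48 h. The control library came, by the study's methods, from cells in normal medium, taken here as medium with neither compound. Its treatment label, "control (normal; BDE209 in DMSO-free medium)", can also be read as BDE-209 without DMSO, and the methods were followed. There was 1 library for each condition, so no difference below has a replicate check, and culture, library and condition cannot be told apart. In bulk RNA, moreover, fewer cells of a type and less RNA per cell cannot be told apart.

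The values are RPKM, that is reads scaled to the length of the transcript and to the mapped reads of the library. They rise in steps of 1 read, from which the read totals that the RPKM were divided by were recovered, 4843624 for the control, 4782044 for DMSO and 4676793 for BDE-209. These divisors are not the sequencing depth. They are below the study's counts of uniquely mapped reads and put BDE-209 below DMSO, where those counts put it above, and what was left out of them is not given in the sources used here. In each library 23089 to 23200 transcripts were listed. Of the marker genes of this line, the intermediate filament gene VIM had 261 to 299 RPKM, and the neurofilament genes NEFM and NEFL had 49.8 to 54.1 and 24.4 to 27.9. Of the renal progenitor genes, EYA1 stayed under 0.3 RPKM and PAX2 was not listed. The leukocyte genes PTPRC and CD3E and the erythroid gene HBB were not listed either, while ALB of hepatocytes, PECAM1 of endothelium and COL1A1 of fibroblasts had at most 0.0944, 0.438 and 5.19 RPKM.

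HMG proteins are small, abundant chromatin proteins without enzymatic activity. The HMGB members bend DNA with their HMG boxes, whereas the HMGN members bind the nucleosome core and counteract compaction by linker histone. NUCKS1 is a DNA-binding nuclear protein that casein kinase phosphorylates. SET is a histone chaperone and an inhibitor of the phosphatase PP2A. NPM1 and NCL are major proteins of the nucleolus that act in ribosome assembly and also bind histones, and YBX1 binds both DNA and mRNA. All of them are abundant in dividing cells, and several have given rise to many processed pseudogenes, that is, copies of the spliced mRNA put back into the genome.

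Such copies were searched here because the authors kept only reads with 1 place in the genome. In GENCODE 44 on GRCh37 (the hg19 build of the files), 49 annotated pseudogenes carried the name of NPM1, 47 that of HMGB1, 38 that of HMGN2, 32 that of HMGN1, 29 that of HMGB3, 19 that of SET and 10 that of YBX1. NCL had 2 and NUCKS1 and HMGB2 had 1 each. HMGN2, YBX1 and NUCKS1 lie on chromosome 1 (26798931 to 26803133, 43148089 to 43169476 and 205681950 to 205719310), and NCL on chromosome 2 (232318242 to 232348352). HMGB2 lies on chromosome 4 (174252527 to 174255583), NPM1 on chromosome 5 (170814120 to 170838814), SET on chromosome 9 (131445703 to 131458679) and HMGB1 on chromosome 13 (31030841 to 31191734). HMGN1 lies on chromosome 21 (40714241 to 40721573) and HMGB3 on chromosome X (150148982 to 150159244). Every window of 49 bases, the read length, was taken from 1 GENCODE transcript of each gene and searched for exact matches on both strands of GRCh37. Over the whole transcript, the most other copies of a window were 473 in YBX1, 59 in NCL, 13 in HMGN2, 10 in NPM1 and 6 in HMGB1. Among only the windows within a coding exon, those below have the most other copies in HMGN2, NPM1 and HMGB1. They are shown because a read from any of them cannot be placed uniquely, and they are in lower case throughout, since the whole window is shared with the copies.
HMGN2, chr1:26801090-26801138, plus strand, 9 other copies: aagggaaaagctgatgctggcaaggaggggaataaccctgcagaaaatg
NPM1, chr5:170832358-170832406, plus strand, 8 other copies: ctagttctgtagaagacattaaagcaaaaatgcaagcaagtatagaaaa
HMGB1, chr13:31035605-31035653, minus strand, 6 other copies: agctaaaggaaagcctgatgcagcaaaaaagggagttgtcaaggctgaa

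The share of coding windows that lay within an exon and had no other exact copy differed widely among the 10 genes. In HMGN2 it was 0 of 222 coding windows. It was 8.71% of 597 windows in HMGB1, 8.75% of 834 in NPM1 and 14.7% of 252 in HMGN1, and YBX1 and SET followed with 23.8% of 924 and 28.7% of 822. HMGB3 reached 53.4% of 552 windows. The highest shares belonged to NUCKS1 with 62.3% of 681, NCL with 71.2% of 2082 and HMGB2 with 74.8% of 579, the genes with 1 or 2 named pseudogenes.

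Windows across a splice junction have no place of their own in a genome alignment, but some of them matched a copy elsewhere. Such windows made up 56.8% of the coding windows of HMGN2, 46.0% of those of NPM1 and 39.3% of those of HMGN1, against 1.68% in NCL, 2.35% in NUCKS1 and 2.42% in HMGB2. For HMGB1, by contrast, windows within an exon with a copy elsewhere were the largest class, at 67.2%. RPKM counts reads over the whole transcript, and with the untranslated parts the shares of single-copy windows were higher in each of the 10 genes. They were 16.6% of 1290 windows in NPM1, 32.1% of 1223 in HMGN1, 47.8% of 1892 in HMGN2 and 53.9% of 2802 in SET. HMGB1 had 58.9% of 4151 and YBX1 had 61.5% of 2931, and NCL, HMGB3, HMGB2 and NUCKS1 had 81.8%, 81.9%, 86.1% and 94.0%. HMGN2, without a single-copy window in its coding sequence, thus had 904 of them over its whole transcript, and NPM1 had the lowest share. The GENCODE transcripts of HMGB1, NCL and YBX1, with 4199, 3924 and 2979 bases, are longer than the lengths recovered for the RefSeq transcripts, 3428, 2732 and 1561 bases, so for these genes the second set of shares covers sequence that the RPKM may not.

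Copies with 1 or 2 mismatches were not searched. The alignments were not analysed here, so the effect of the copies on the RPKM values was not tested, and levels of different members should be read with these shares beside them. The same sequence was read in each library, so the shares do not differ between libraries.

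**Figure D1:**
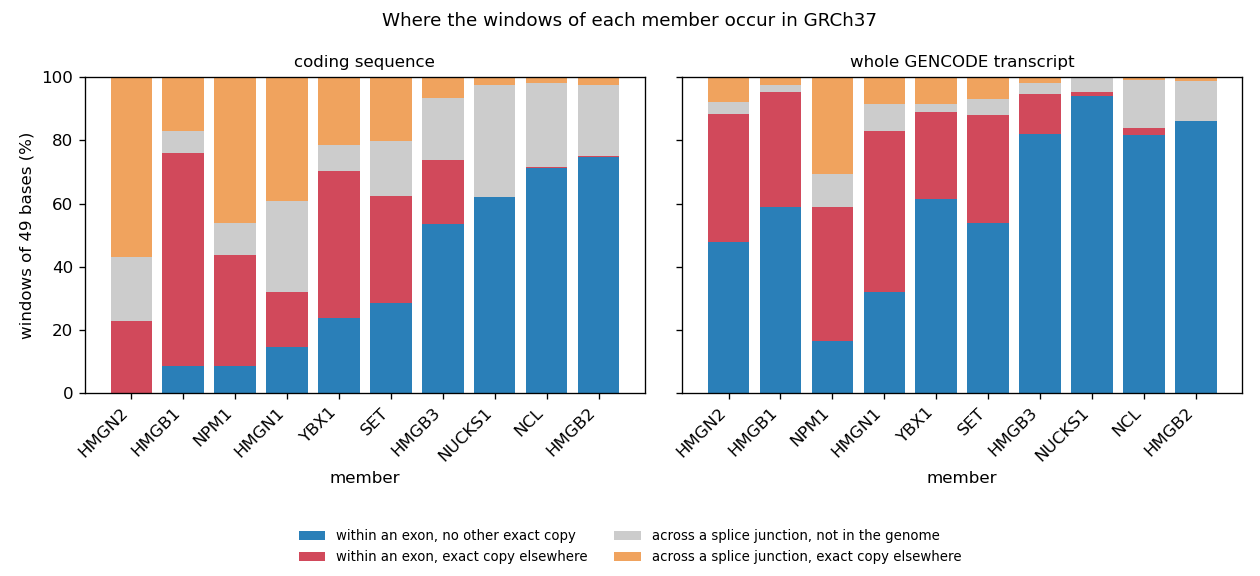
Share of windows of 49 bases (%) in each of the 10 genes, in the coding sequence (left) and the whole GENCODE transcript (right), in 4 classes by exact match to GRCh37. HMGN2 has no single-copy window in its coding sequence and 47.8% over the whole transcript, and NUCKS1, NCL and HMGB2 have 62.3% to 74.8% on the left and 81.8% to 94.0% on the right.

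In the order of their mean RPKM the members ran from YBX1 (1197) and NCL (829.6) through HMGN2 (485), HMGN1 (414), SET (400.3), NUCKS1 (310.4), HMGB1 (293) and NPM1 (291) to HMGB3 (73.7) and HMGB2 (12.2). RPKM is a level per length, so genes of different length can be set side by side, with the shares given above as a limit. The ranges over the 3 libraries did not overlap between neighbours in this order, except for NUCKS1 with HMGB1 and HMGB1 with NPM1. Together the 10 transcripts took 1.05% of the recovered total in the control, 1.06% in DMSO and 1.05% in BDE-209.

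**Figure D2:**
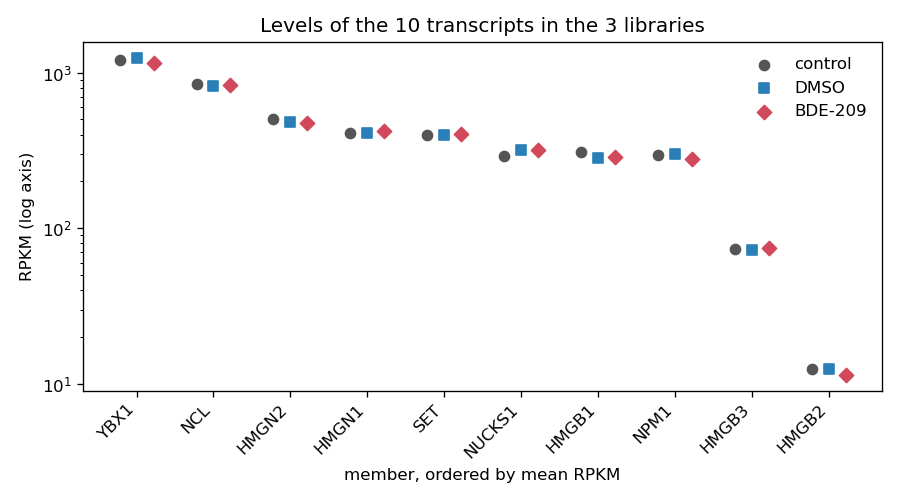
RPKM (log axis) of the 10 transcripts in the control, DMSO and BDE-209 libraries, 1 point per library, ordered by mean. The points of a member lie within 1.1-fold of each other, while the members range from 11.5 RPKM for HMGB2 to 1236 RPKM for YBX1.

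A transcript was counted as apart where its RPKM was at least 25% higher or 20% lower in the first library of a comparison, which is the same fold in either direction. No member was apart by this limit in any of the 3 comparisons, also with the other scalings tried. In the deposited RPKM none was 1.1-fold apart either. This count depends on the scaling: with equal summed RPKM NUCKS1 was 1.1-fold higher in both comparisons with the control, and with the study's uniquely mapped totals it was so in DMSO against the control, while HMGB2 and NPM1 were 1.1-fold lower in BDE-209 than in DMSO. Among all 8060 transcripts with a mean of at least 10 RPKM, 3.13% were apart between BDE-209 and DMSO, 4.17% between DMSO and the control and 4.28% between BDE-209 and the control. In a set of 10 members, a count of 0 lies near these shares. At 1.1-fold these shares were 24.6%, 29.3% and 31.7%. Most members have far more reads than the typical transcript, so the 1913 transcripts with a mean of at least 50 RPKM, which include 9 of the members, are a closer background. Of these 1913, only 10, 21 and 22 were apart by the first limit, in the same order of comparisons. Of the 1904 that are not members, 14.8% lay as far from 1 as HMGB2 between BDE-209 and DMSO. For DMSO against the control 17.3% lay as far as NUCKS1, and for BDE-209 against the control 18.4% as far as HMGB2. These were the farthest members and were less than 1.1-fold apart, so the 1.1-fold shares of the 1904 are no higher than these. The ratios of BDE-209 to DMSO in the 1913 had a median log2 of -0.01. Their median distance from 0 was 0.050 on the log2 scale, against 0.025 for the 10 members. For DMSO against the control the median distance was 0.059 in these transcripts and 0.029 in the members, and for BDE-209 against the control it was 0.064 and 0.074. The members include HMGB2, below 50 RPKM, and were not matched to these transcripts in reads. Counting error alone can thus set the distances apart, and no difference in stability is drawn from them. The largest ratio of highest to lowest library was 1.095, in NUCKS1, HMGB2 and HMGB1, and the smallest was 1.018, in HMGB3. The comparisons share libraries in pairs, so they are not independent of each other.

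**Figure D3:**
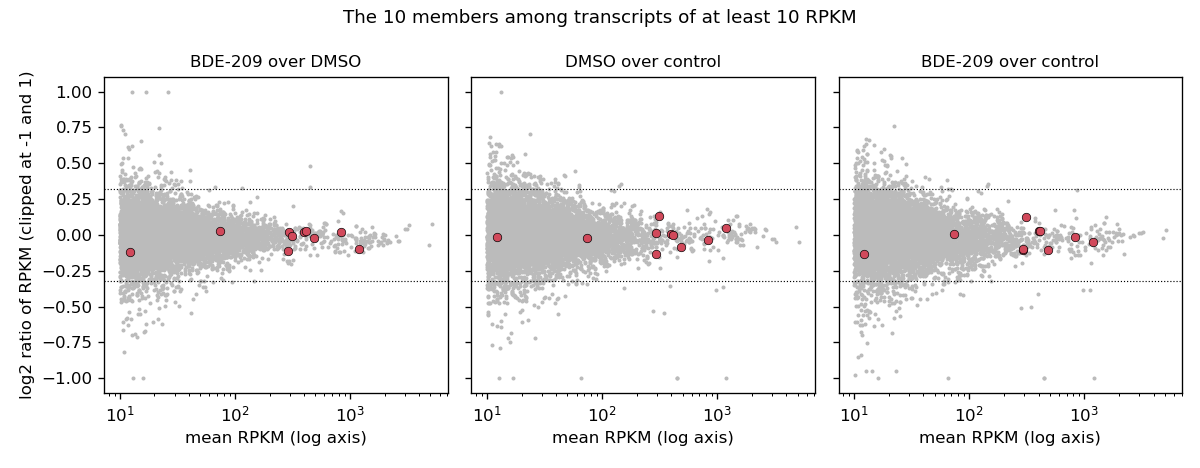
Log2 ratio of RPKM, clipped at -1 and 1, against mean RPKM (log axis) for the 8060 transcripts of at least 10 RPKM (grey) and the 10 members (red), in each comparison. Dotted lines mark the limit of 25% higher or 20% lower, and all red points lie between them.

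HMGB1, which also acts as an extracellular danger signal, had 309 RPKM in the control (5132 reads), 282 in DMSO (4629 reads) and 287 in BDE-209 (4599 reads). The control was the highest library, and the 2 libraries with DMSO were close to each other. The ratio of DMSO to control was 0.914, with a 95% Clopper-Pearson interval of 0.878 to 0.951 from the reads, and that of BDE-209 to control was 0.928 (0.892 to 0.966). Between BDE-209 and DMSO the ratio was 1.02 (0.975 to 1.06). These intervals, like all those below, cover counting error only and not the variation between cultures. Ratios as far from 1 as that of DMSO to control were found in 17.4% of the 1904 other transcripts with at least 50 RPKM. This share and the like shares below were not matched for reads. Transcripts with fewer reads vary more by counting error alone.

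HMGB2, a paralog of HMGB1 whose level is high in proliferating cells, had 12.6 RPKM in the control, 12.5 in DMSO and 11.5 in BDE-209. Only 93, 91 and 82 reads lay behind these values, the fewest of all members. The ratio of BDE-209 to DMSO was 0.921 with an interval of 0.675 to 1.26, so a difference of 25% was not detectable at this depth. Other HMGB2 transcripts, NM_001130688 and NM_001130689, had 5.56 to 6.47 and 0.284 to 0.441 RPKM. The recovered lengths of the 3 transcripts were close, at 1527, 1467 and 1454 bases, and yet their levels were far apart. How reads shared by isoforms were counted is not given in the sources used here, so the low level of HMGB2 carries this limit.

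HMGB3, the third HMG-box member, had 74.0 RPKM in the control, 72.9 in DMSO and 74.2 in BDE-209, from 1234 to 1275 reads. The 3 libraries were level, and the widest ratio, of BDE-209 to DMSO, was 1.02 (0.940 to 1.103).

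HMGN1 had 411 RPKM in the control, 412 in DMSO and 420.0 in BDE-209, with 2579 to 2616 reads. The BDE-209 library was the highest by a margin within counting error, with a ratio to DMSO of 1.02 (0.966 to 1.08). HMGN2 had 506 RPKM in the control (4875 reads), 478 in DMSO (4547 reads) and 471 in BDE-209 (4382 reads). As with HMGB1, the control was the highest. The ratio of HMGN2 was 0.945 (0.907 to 0.984) for DMSO to control, 0.931 (0.894 to 0.970) for BDE-209 to control and 0.985 (0.945 to 1.03) for BDE-209 to DMSO. With the study's uniquely mapped totals the first became 0.972 (0.934 to 1.01) and the last 0.959 (0.9197 to 0.9997). The HMGN2 ratio of BDE-209 to control was matched or passed in distance from 1 by 28.5% of the other transcripts of at least 50 RPKM.

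NUCKS1 ran the other way, with 292 RPKM in the control (9162 reads), 320.1 in DMSO (9906 reads) and 319 in BDE-209 (9643 reads). It was the only member whose control value was the lowest by more than counting error against both other libraries. Its ratio was 1.095 (1.06 to 1.13) for DMSO to control and 1.09 (1.06 to 1.12) for BDE-209 to control, while BDE-209 and DMSO differed by a ratio of 0.995 (0.968 to 1.02), or 0.969 (0.942 to 0.996) with the study's totals. Among the other transcripts of at least 50 RPKM, 17.3% lay as far from 1 as NUCKS1 in DMSO against control. They were not matched to NUCKS1 in reads, so this share does not show how common such a shift is at its depth. The shared control enters both of the ratios above 1.

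SET had 397 RPKM in the control, 399 in DMSO and 405 in BDE-209, with 5555 to 5646 reads. The order of the libraries was within counting error, and the ratio of BDE-209 to control was 1.02 (0.982 to 1.06). Its other listed transcript, NM_001122821, had 386, 384 and 397 RPKM. The RPKM of the SET forms were thus nearly the same. NM_001122821 had 5353 reads in the control, 5262 in DMSO and 5314 in BDE-209, close to the reads of the first form. How reads shared by isoforms were counted is not given in the sources used here. Whether the SET forms rest largely on the same reads was not tested, so they are not taken as independent measurements. No contrast in isoform levels with HMGB2 is drawn from these values.

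NPM1, which shuttles between nucleolus and cytoplasm, had 297 RPKM in the control (2082 reads), 299.6 in DMSO (2076 reads) and 277 in BDE-209 (1879 reads). Here the BDE-209 library was the low one. The ratio of NPM1 was 0.925 (0.869 to 0.986) for BDE-209 to DMSO, 0.935 (0.878 to 0.995) for BDE-209 to control and 1.01 (0.9499 to 1.07) for DMSO to control. With equal summed RPKM the interval of BDE-209 to control included 1 (0.893 to 1.01). Of the other transcripts with at least 50 RPKM, 17.3% lay as far from 1 between BDE-209 and DMSO. The other NPM1 transcripts were lowest in BDE-209 too. NM_001037738 had 129 RPKM in the control, 131 in DMSO and 120.2 in BDE-209, and NM_199185 had 235, 236 and 224. The ratios of BDE-209 to DMSO were 0.915 (0.828 to 1.01) and 0.947 (0.881 to 1.02) for these forms, which share sequence with NM_002520 and are no independent measurement.

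NCL had 839 RPKM in the control (11106 reads), 819 in DMSO (10706 reads) and 830.1 in BDE-209 (10606 reads). It had the most reads of the members and thus the narrowest intervals. They included 1 in all comparisons, with ratios of 1.01 (0.986 to 1.04) for BDE-209 to DMSO, 0.976 (0.951 to 1.003) for DMSO to control and 0.989 (0.963 to 1.02) for BDE-209 to control. With a median-of-ratios size factor that of DMSO to control lay below 1, at 0.972 (0.947 to 0.998).

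YBX1, which packages mRNA in the cytoplasm and takes its name from the Y-box promoter element, had 1198 RPKM in the control (9057 reads), 1236 in DMSO (9227 reads) and 1157 in BDE-209 (8445 reads). As with NPM1, the DMSO library was the highest and the BDE-209 library the lowest. The ratio of YBX1 was 0.936 (0.909 to 0.964) for BDE-209 to DMSO, 1.03 (1.002 to 1.06) for DMSO to control and 0.966 (0.937 to 0.995) for BDE-209 to control. The interval of the second included 1 with the size factor (0.998 to 1.06), and that of the third with equal summed RPKM (0.954 to 1.01). The ratio of BDE-209 to DMSO was matched in distance from 1 by 23.3% of the other transcripts of at least 50 RPKM.

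**Figure D4:**
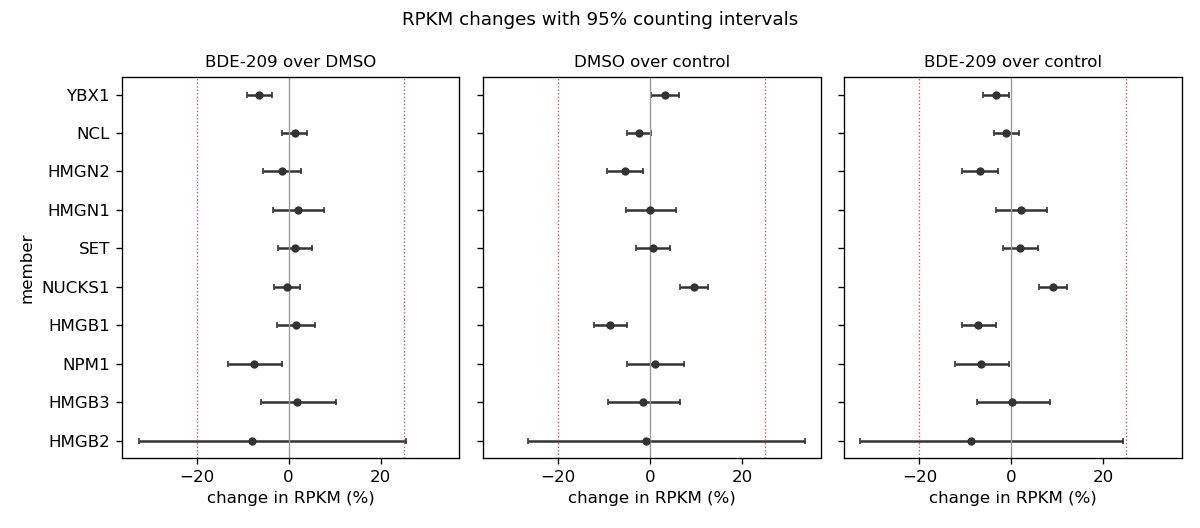
Change in RPKM (%) of each member in the 3 comparisons, 1 library per condition, with 95% Clopper-Pearson intervals from the recovered reads. Dotted lines mark 25% higher and 20% lower. All points lie inside these lines, NPM1 and YBX1 lie left of 0 for BDE-209 over DMSO, and NUCKS1 lies right of 0 in both comparisons with the control.

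Related genes were taken from 4 lists, chosen with earlier results of these data known. Of 45 genes with a listed transcript, 34 had at least 1 of their transcripts at a mean of 10 RPKM or more, which gave 46 transcripts. None of the 46 was 25% higher or 20% lower in any comparison of the deposited RPKM, against the 3.13%, 4.17% and 4.28% of all transcripts given above. Closest to this limit was NPM3, a nucleophosmin paralog, with 39.3 RPKM in the control, 49.04 in DMSO and 42.6 in BDE-209 and a ratio of 1.248 for DMSO to control. At least 129, 159 and 135 reads lay behind the values of NPM3, and the interval of that ratio was 0.983 to 1.59. CARHSP1, a small cold shock domain protein, had ratios of 1.24 (1.02 to 1.52) and 1.24 (1.01 to 1.51) for its listed transcripts NM_001042476 and NM_014316 in the same comparison. Each of them had 181 reads in the control and 222 or 221 in DMSO, so they rest on about the same reads and are no independent measurements. NPM3 and CARHSP1 were singled out after their values were seen.

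Of the HMG and nucleosome-binding relatives, 12 transcripts of 9 genes were compared, with median ratios of 0.996 for BDE-209 to DMSO, 1.02 for DMSO to control and 1.00 for BDE-209 to control. The highest of them was SSRP1, the HMG-box subunit of the FACT complex, with 353 RPKM in the control, 352 in DMSO and 341 in BDE-209. In the list of SET and nucleophosmin relatives, 3 transcripts passed the limit, with median ratios of 0.992, 0.981 and 1.04 in the same order of comparisons, and ANP32B, an acidic histone-binding protein, was the highest at 278, 272 and 288 RPKM. The 5 cold shock domain transcripts had median ratios of 0.955, 1.04 and 1.01, and YBX3, the closest of them to YBX1, had 180.1, 187 and 182 RPKM in NM_001145426.

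The largest list held nucleolar ribosome assembly factors, with 26 transcripts of 19 genes. FBL, the methyltransferase of box C/D snoRNPs, was the highest at 334 RPKM in the control, 341 in DMSO and 319.9 in BDE-209. In DMSO against the control, 22 of the 26 transcripts had a ratio below 1, against 3907 of all 8060 transcripts. The median ratio of the list was 0.927, while the median over all 8060 transcripts lay 0.321% above a ratio of 1. Transcripts of the same gene share sequence, so the 26 are no independent measurements. At 1.1-fold, 8 of the 26 (30.8%) were lower and 0 higher in DMSO, where 13.8% of all transcripts were lower and 15.5% higher. With the study's uniquely mapped totals, 4 were 1.1-fold lower and 1 higher, against 8.82% and 23.9% of all transcripts. With these totals 18 of the 26 lay below 1, against 2859 of the 8060, and the median ratios were 0.954 and 1.03. The 8 that were 1.1-fold lower in the deposited RPKM belong to 5 genes, namely GAR1, NOP2 and DKC1 with 2 transcripts each, NOP58 and NOP10. NOP2, an rRNA methyltransferase, had 62.9 RPKM in the control, 53.2 in DMSO and 54.8 in BDE-209 in NM_006170, a ratio of DMSO to control of 0.846 (0.762 to 0.938). DKC1, the pseudouridine synthase of box H/ACA snoRNPs, had 112, 100.04 and 108 RPKM in NM_001363, a ratio of 0.891 (0.825 to 0.963). NOP58, a core protein of box C/D snoRNPs, had 149, 135 and 148 RPKM and a ratio of 0.905 (0.838 to 0.976). The intervals of GAR1 and NOP10 included 1. The ratios of GAR1 were 0.841 (0.702 to 1.007) in NM_018983 and 0.863 (0.714 to 1.04) in NM_032993, and that of NOP10 was 0.901 (0.762 to 1.07). These genes were named after their values were seen. For BDE-209 to DMSO the median of the list was 1.03 and for BDE-209 to control 0.962. The members NPM1 and NCL, which act in the same compartment, had ratios of DMSO to control of 1.01 and 0.976.

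**Figure D5:**
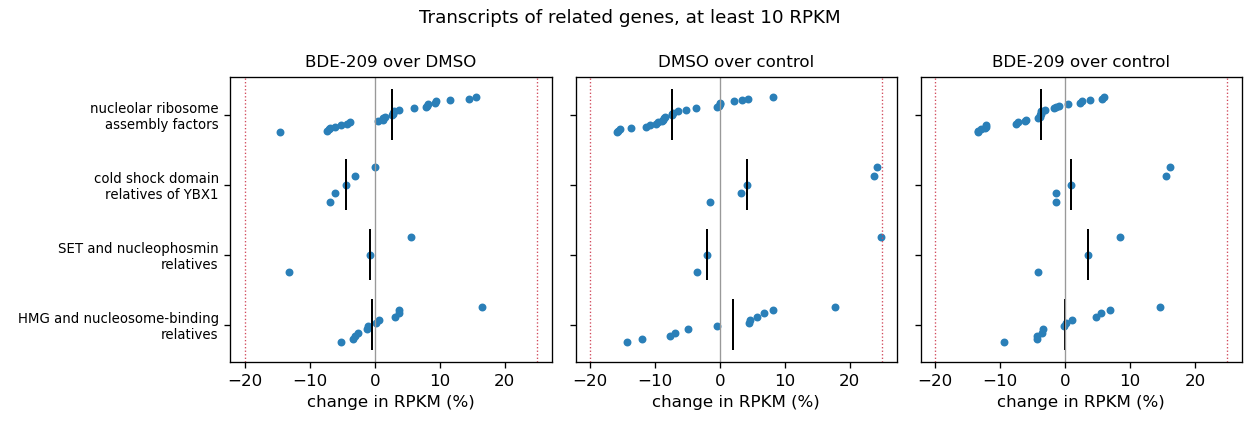
Change in RPKM (%) of the 46 transcripts of related genes with at least 10 RPKM, 1 point per transcript, by list and comparison, with the median of each list as a black bar. Dotted lines mark 25% higher and 20% lower, which no point passes, and the nucleolar list lies mostly left of 0 for DMSO over control.

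The transcripts nearest to the median of the 9 members with at least 50 RPKM were sought by the distance of their log2 ratios of DMSO and BDE-209 to control. That median was 0.0013 for DMSO and -0.016 for BDE-209. It is no pattern shared by the members, since NUCKS1 lay above 1 and HMGB1 and HMGN2 below 1 in both ratios. The nearest of 1904 transcripts were WDR82, BTF3 and PKM (NM_002654), at distances of 0.0015, 0.0026 and 0.0028 on the log2 scale. BTF3, for example, had 487 RPKM in the control, 488 in DMSO and 483 in BDE-209. With 3 libraries this nearness rests on 2 ratios only, and with a median near 0 it picks transcripts that are level over the libraries.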

How the data were processed

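Libraries of polyA RNA gave 49-base single-end reads. Alignment by the authors was to hg19 with SOAPaligner, with up to 2 mismatches in a read, and reads with more than 1 place were dropped. The deposited values are RPKM for RefSeq transcripts, in 1 file for each of the 3 samples. Transcripts without a read are absent from a file and were set to 0. Symbols came from a RefSeq table of GRCh38.p14, used for names only, in which 24434 of 25443 identifiers matched. Groups followed the treatment label, except that the control was taken as free of both compounds after the study's methods. The members and the lists of relatives were chosen with earlier results of these data known, as were the limits of 25% higher or 20% lower and of 10 RPKM. All members were named. Relatives were to be named past the first limit or else as the highest of their list.

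Ratios were taken from the deposited RPKM with a pseudocount of 0. The read totals behind the RPKM were recovered from the steps of 400 low values per library, and the length of a transcript as the shortest one, from its coding length up, that gives whole reads in all libraries within the rounding of 6 significant digits. Exact Clopper-Pearson intervals at 95% were computed from these reads with scipy 1.17.1 (Python 3.11.15, numpy 2.4.6, pandas 2.3.3, numba 0.67.0, matplotlib 3.10.9). On simulated libraries, the length was exact for 177 of 200 transcripts and a divisor of it for 18, and 97% of 200 transcripts changed 1.5-fold were past the limit, with 8068 transcripts compared in a simulated BDE-209 and DMSO pair. The simulated reads varied by Poisson counting error only, so the 97% leaves out variation between cultures and is no sensitivity for these data. Windows were searched in GRCh37 with GENCODE 44, in the transcript with the longest consensus coding sequence. The recovered totals, 4676793 to 4843624 reads, are divisors of the RPKM and lie below the study's uniquely mapped reads. Scaling to the latter was added after seeing the data. No test was made, since each condition has 1 sample. A marker fixed for the check of the cell line is not reported here.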

Additional observations from a re-analysis of the deposited data

How the results depend on the processing

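The counts of members and of relatives 25% higher or 20% lower were recomputed with pseudocounts of 0.5 and 1 RPKM, a median-of-ratios size factor, equal summed RPKM, the study's uniquely mapped totals (added after seeing the data) and folds of 1.1, 1.5 and 2, and that of members also with the other limits on RPKM. The count of members stayed at 0 under all of these. The count of relatives became 6, 14 and 10 at 1.1-fold for BDE-209 over DMSO, DMSO over control and BDE-209 over control, and for DMSO over control 2 with equal summed RPKM and 3 with the study's totals. Among all tested transcripts, the counts of 252, 336 and 345 became 1986, 2361 and 2559 at 1.1-fold, 28, 27 and 32 at 1.5-fold and 5, 7 and 5 at 2-fold. They became 6692, 7000 and 6985 without a limit on RPKM, 2654, 2874 and 2852 at 1 RPKM and 10, 21 and 22 at 50 RPKM. Pseudocounts, scalings and a restriction to protein-coding transcripts moved them by less than 1.5 times. Their split moved, however, from 104 higher and 148 lower to 68 and 215 for BDE-209 over DMSO and from 158 and 178 to 276 and 107 for DMSO over control with the study's totals, and from 145 and 200 to 206 and 154 for BDE-209 over control with equal summed RPKM. Of the 30 ratios of the members, 27 stayed within their counting intervals with the study's totals and all 30 under each other alternative. The size factor and equal summed RPKM moved ratios by at most 0.0062 and 0.025 on the log2 scale. Even the narrowest interval reaches further to each side, so for these 2 scalings the result was fixed in advance and is no evidence of stability. Of the 30 counting intervals of the members, 11 excluded 1 in the deposited RPKM. Such intervals were not computed over all tested transcripts, so the 11 have no background share and say nothing particular about the members. Of the 11, 1 was lost with the size factor (YBX1, DMSO over control), 2 with equal summed RPKM (NPM1 and YBX1, BDE-209 over control) and 1 with the study's totals (HMGN2, DMSO over control). With the size factor 1 was gained (NCL, DMSO over control) and with the study's totals 2 (HMGN2 and NUCKS1, BDE-209 over DMSO). With the study's totals 8 ratios changed side, and with the other scalings 3 did, those of NUCKS1 between BDE-209 and DMSO and of NCL between BDE-209 and the control with equal summed RPKM, and that of HMGN1 between DMSO and the control with the size factor. The largest shift under any alternative, 0.074 on the log2 scale, came with the sum of all HMGB2 transcripts. No paired analysis was possible because each condition has 1 sample. Depth limits HMGB2 most, with 82 to 93 reads.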
